A study of Homo sapiens with 6 samples.

Results

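The WNT ligand and receptor genes are 42 genes of the WNT pathway: 19 WNT ligands, 10 Frizzled receptors, the co-receptors LRP5 and LRP6, the scaffolds AXIN1 and AXIN2, 4 TCF/LEF transcription factors, the Frizzled ligases RNF43 and ZNRF3, and the R-spondin receptors LGR4, LGR5 and LGR6. A region of estrogen receptor alpha (ERα) binding was counted with a gene when its summit lay inside the gene's GRCh38 span or within 25 kb of it. Merged over the 6 libraries, 460 of 175206 regions met this rule. A region near a gene is a position, and nothing measured here ties it to that gene's expression.

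Binding was mapped by chromatin immunoprecipitation and sequencing in MDA-MB-453, an established human breast cancer line that was given an inducible wild-type, Y537S or K303R ERα. All 6 groups received 2 µg/mL doxycycline for 2 days to switch the receptor on, in medium with 10% fetal bovine serum that is not labelled as hormone-stripped. Each receptor was studied without and with 1 nM estradiol (E2), with 1 library in each of the 6 groups, and antibody D8H8 was used for all. The labels do not say whether a line is a clone or a pool. Peak lists hold no expression values, so the identity of the cells could not be checked against markers. Y537S is a ligand-binding-domain substitution known to keep the receptor active without hormone, and K303R is a hinge-region substitution.

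WNT proteins are secreted lipid-modified ligands that bind a Frizzled receptor and LRP5 or LRP6 on the cell surface. This stops the AXIN-based destruction complex from marking β-catenin for breakdown, and β-catenin then enters the nucleus and acts with TCF/LEF factors. ZNRF3 and RNF43 remove Frizzled from the surface, and R-spondins bound to LGR4, LGR5 or LGR6 block them. AXIN2, LGR5, RNF43 and ZNRF3 are themselves known β-catenin targets and feed back on the pathway. In the mammary gland, WNT ligands, WNT4 among them, are known to carry steroid hormone signals from hormone receptor-positive cells to their neighbours.

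The amount of binding at a region is given as summit fragments, the number of sequenced fragments covering the peak summit, recovered from each peak's deposited fold and p-value. The 6 lists held 106186 to 125850 peaks on chromosomes 1 to 22 and X, and the median peak had 23 to 30 summit fragments. The lists do not state each library's total reads. The strongest region near each of GREB1, PGR, TFF1 and XBP1, known ERα targets, had 147 to 370 fragments in every library. The Y537S lists carry another date-like tag (20200821) in their peak names than the wild-type and K303R lists (20200710), so receptor, cell line and batch cannot be told apart when Y537S is set against wild type. Each group has 1 library, so differences could not be checked against replicates. Intervals are given at 95% and reflect the counting of fragments alone.

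ERα regions lay near nearly all of the 42 genes. A region was found near 39, 39, 40, 39, 38 and 39 genes in wild type without and with E2, Y537S without and with E2, and K303R without and with E2. The share of all 19974 protein-coding genes with a region was 90.7%, 90.1%, 90.8%, 89.7%, 89.4% and 89.0%, so being near a region does not set these genes apart. WNT8A and FZD10 had no region in any library. FZD2 had a single region, of 7 fragments, in Y537S without E2. FZD3 had fragments of 20 and 17 in wild type and 37 and 31 in Y537S, no region in K303R without E2, and 11 fragments in K303R with E2.

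Strong regions, defined as the 10000 regions of a library with the highest −log10 p, lay near fewer genes. They were near 16, 16, 15, 18, 17 and 16 of the 42 genes in the same order of libraries, against 29.7%, 29.7%, 31.7%, 31.5%, 32.1% and 32.0% of all protein-coding genes. The same 15 genes had one in all 6 libraries: WNT2, WNT3A, WNT4, WNT7B, WNT9A, WNT11, FZD9, LRP5, LRP6, AXIN1, AXIN2, TCF7, ZNRF3, LGR5 and LGR6. LEF1 had one in 5 libraries, and was without one in Y537S without E2. WNT5A, WNT5B and TCF7L2 had one in a single library each, and the other 23 genes had none. By role, both LRP co-receptors and both AXIN scaffolds were near strong regions in every library, while 1 of 10 Frizzled genes, FZD9, was.

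Regions were spread along the genes rather than gathered at one site. Of the 460 regions, 273 (59.3%) had their summit inside the span of a listed gene, or 11.5 per 100 kb. The other 187 lay in the flanks, or 8.9 per 100 kb, 62 of them in another gene. The flank density is a low estimate. Flanks that overlap between neighbouring listed genes, or fall inside a neighbour's span, were counted in full for each gene. LGR6 had the most regions at 32, followed by ZNRF3 with 30, LRP5 with 27 and WNT7B with 26. Per length, WNT7B was densest among genes with at least 1 region (24.3 regions per 100 kb) and FZD3 the sparsest (1.54). Neighbouring genes shared some regions: WNT6 and WNT10A shared 6, WNT1 and WNT10B 6, and WNT3 and WNT9B 5.

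The lists agreed on the larger regions. In all 6 lists stood 202 of the 460 regions (43.9%, against 38.7% of all 175206 regions), and their median highest value over the libraries was 82 fragments. In only 1 list stood 98 regions (21.3%, against 21.7% of all regions), with a median of 11 fragments. Comparisons between libraries were therefore made over regions found in all 6 lists with a mean of at least 50 fragments, called well covered here. These were 113 regions near 28 of the genes, of 33626 in the whole series. The other 14 genes, WNT1, WNT10B and RNF43 among them, had no well-covered region.

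Most binding lay away from annotated starts. RefSeq promoter windows of GRCh38.p14, covering 250 bases before to 50 after a start, were matched for 30 of the 42 genes, with 39 windows. A summit fell in 6, 4, 5, 3, 3 and 4 of these windows in the 6 libraries in the order above, and in 11.8%, 10.1%, 10.8%, 9.78%, 11.5% and 9.19% of all windows. Over the libraries, 9 genes had a summit in a window. WNT5B, a ligand best known for β-catenin-independent signalling, was the only one with a summit in its window in all 6. The windows of WNT5B, WNT16 and FZD5 are shown 5′ to 3′ on the gene's strand because a peak overlapped them in every library and its summit fell inside in at least 3. A peak also overlapped a WNT5A window in every library, with its summit 164 to 244 bases after the start. Capitals mark the core GGTCA of the estrogen response element or its reverse complement TGACC, a motif added after the data were seen.
WNT5B (chr12:1628981-1629280, plus strand): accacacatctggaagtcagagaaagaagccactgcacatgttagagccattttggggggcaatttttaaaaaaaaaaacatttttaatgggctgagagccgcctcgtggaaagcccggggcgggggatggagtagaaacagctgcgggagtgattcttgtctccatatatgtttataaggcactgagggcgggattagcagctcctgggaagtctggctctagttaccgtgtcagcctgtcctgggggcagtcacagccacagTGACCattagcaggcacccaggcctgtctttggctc
WNT16 (chr7:121328750-121329049, plus strand): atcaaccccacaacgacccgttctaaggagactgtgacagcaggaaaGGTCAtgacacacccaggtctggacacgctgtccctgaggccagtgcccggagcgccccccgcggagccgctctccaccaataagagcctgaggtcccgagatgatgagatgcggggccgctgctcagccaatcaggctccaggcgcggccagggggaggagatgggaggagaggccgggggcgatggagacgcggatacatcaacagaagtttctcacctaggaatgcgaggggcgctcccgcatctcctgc
FZD5 (chr2:207769857-207770156, minus strand): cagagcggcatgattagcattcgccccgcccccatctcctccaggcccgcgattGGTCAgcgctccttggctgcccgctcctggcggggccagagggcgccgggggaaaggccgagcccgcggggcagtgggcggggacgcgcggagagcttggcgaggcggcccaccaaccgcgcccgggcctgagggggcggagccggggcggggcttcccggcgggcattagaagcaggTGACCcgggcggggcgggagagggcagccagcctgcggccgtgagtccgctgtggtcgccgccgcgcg

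At the WNT5B window the summits lay within 16 bases of the start in every library, at −3, 6, −14, −6, 16 and 11 bases. Fragments there were 86 without and 96 with E2 in wild type, 97 and 132 in Y537S, and 61 and 91 in K303R. Its TGACC stands at bases 265 to 269 of the printed window, just inside the transcribed side. At WNT16 the summits lay 225 to 360 bases before the start, at or beyond the upstream end of the window, where GGTCA stands at bases 48 to 52. Fragments at WNT16 were 21 and 41 in wild type, 82 and 77 in Y537S, and 16 and 62 in K303R, so the low libraries were wild type and K303R without E2. FZD5 kept a weak peak, with 33 and 26 fragments in wild type, 24 and 26 in Y537S, and 25 and 35 in K303R. The peak at FZD5 had its summit inside the window in 5 of 6 libraries.

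The core GGTCA, searched on both strands, was in 12 of the 39 windows (30.8%) and in 37.4% of all 35116 windows. The full palindromic element was in none of the 39 and in 0.057% of all windows. Of the other motifs searched, the forkhead motif TGTTTAC was in 2 windows (5.13%, WNT5B and TCF7, all windows 3.42%) and the AP-1 motif TGACTCA in 1 (2.56%, RNF43, all windows 4.95%). The TCF/LEF motif ATCAAAG was in none (all windows 2.62%), nor was the full androgen response element (all windows 0.00285%). The WNT5B forkhead match lies in another of that gene's windows than the one printed. These are matches of letters, and the sequence under the other regions was not analysed here.

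The highest region near each gene, its lead region, differed widely between the genes. AXIN2, a scaffold of the destruction complex, had the highest of all at chr17:65514329-65515132, 13727 bp outside its span. It had 382 and 374 fragments in wild type without and with E2, 367 and 391 in Y537S, and 362 and 388 in K303R. The 6 libraries thus differed little there. LGR6, a receptor for R-spondins, came next with a region inside the gene at chr1:202269487-202270205. Its fragments were 341 and 370 in wild type, 300 and 342 in Y537S, and 310 and 355 in K303R. In raw fragments the E2 library was the higher of each pair, but none of these changes passed the call used below.

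**Figure D1:**
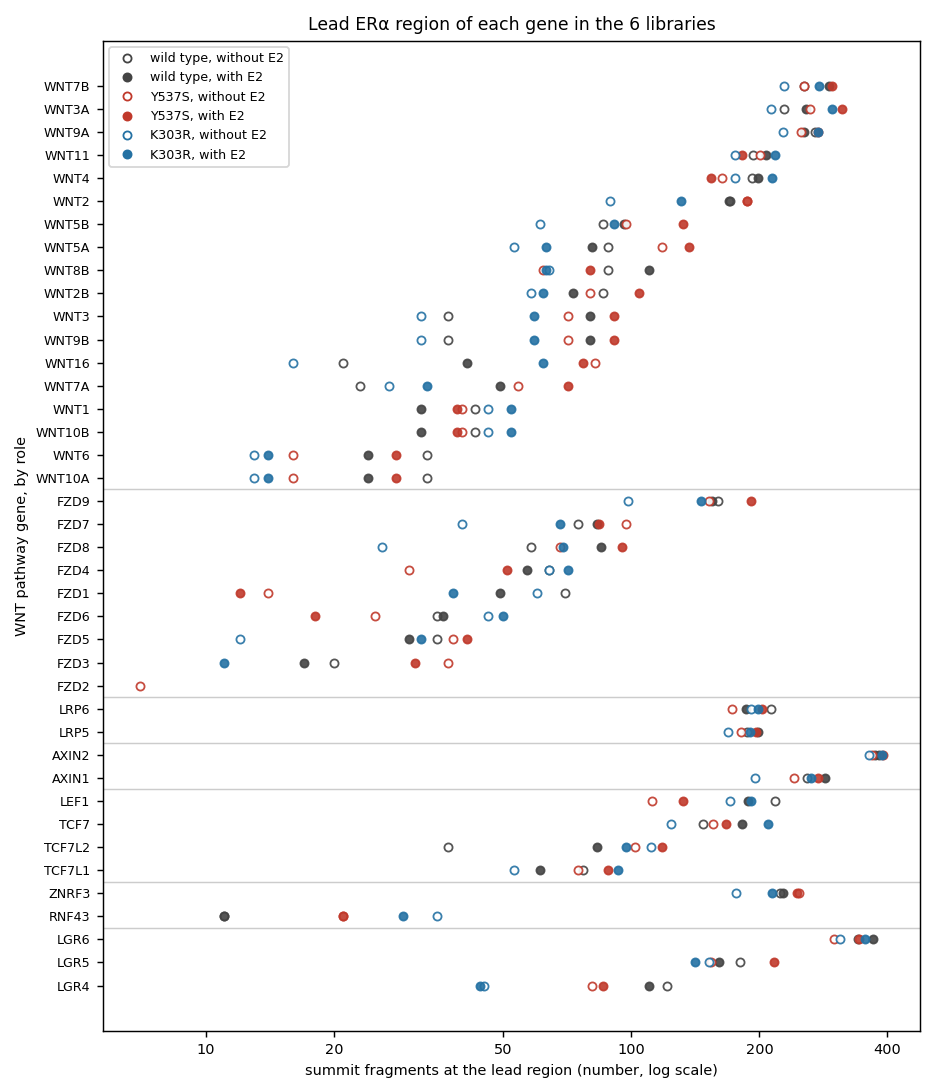
Summit fragments at the lead region of each of the 40 genes with a region, on a log scale, with 1 point per library (open without E2, filled with 1 nM E2, colour by receptor) and grey lines between roles. AXIN2 and LGR6 hold the highest values in all 6 libraries, from 300 to 391, while FZD1 and LEF1 have their lowest points in Y537S.

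Among the ligands, lead regions ranged from 13 to 312 fragments over genes and libraries. WNT7B, a ligand that can signal through β-catenin, had 255 and 292 fragments for wild type, 255 and 297 for Y537S, and 229 and 276 for K303R at chr22:45903273-45904230, 16503 bp outside the gene. WNT3A and WNT9A are neighbours on chromosome 1, and WNT3A is the standard ligand used to switch on β-catenin signalling. The WNT3A lead region at chr1:227998947-227999665 had 229 and 258 fragments for wild type, 263 and 312 for Y537S, and 213 and 297 for K303R. The WNT9A lead region at chr1:227934466-227935585, inside the gene, had 270 and 254, 250 and 274, and 227 and 274. Here wild type was the 1 receptor with the lower value under E2.

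WNT11 and WNT4 completed the ligands among the 12 highest genes. WNT11, known for β-catenin-independent signalling, had 193 and 207 fragments with wild-type receptor, 201 and 182 in Y537S, and 175 and 218 in K303R at chr11:76218872-76219779. WNT4, which acts downstream of steroid hormones in the mammary gland, was bound inside the gene at chr1:22141374-22142098, 1418 bp from its nearest listed start. It had 192 and 199 fragments for wild type, 163 and 154 for Y537S, and 175 and 214 for K303R. At WNT4 the Y537S libraries were the lowest 2 of the 6, by less than the 1.5-fold of the call. At the low end, WNT6 and WNT10A shared a lead region with 13 to 33 fragments.

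Frizzled genes had the fewest regions per gene among the receptors, though most of them have short spans. Per 100 kb, FZD1 had 12.3 regions and FZD3 1.54, against 4.48 for LRP6 and 18.2 for LGR6. Over the 10 genes, 45 gene-region pairs were found, with a median of 5.5 regions per gene. FZD9 stood above the others with 160 and 155 fragments in wild type, 152 and 191 in Y537S, and 98 and 146 in K303R. The co-receptors were bound close to an end of the gene. The LRP6 region at chr12:12266842-12267557 lay 135 bp outside the span with 213 and 186 fragments in wild type, 172 and 203 in Y537S, and 191 and 198 in K303R. The LRP5 region at chr11:68297708-68298393 lay 408 bp outside, with 187 and 199, 181 and 196, and 169 and 190 fragments. At these lead regions both co-receptors stayed within a narrow band over receptors and treatments. Summed over regions found in all 6 lists, Y537S without E2 was at 1.35 (1.24 to 1.48) of wild type for LRP5. For LRP6 it was at 0.968 (0.841 to 1.11).

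AXIN1, the main scaffold of the destruction complex, had its lead region inside the gene at chr16:327071-327637. It had 259 and 286 fragments for wild type, 241 and 274 for Y537S, and 195 and 264 for K303R. ZNRF3, a ligase that removes Frizzled from the surface, had 223 and 227, 248 and 245, and 176 and 214 at chr22:29053978-29054855, within 25 kb of KREMEN1 too. The lowest library at both genes was K303R without E2. That library was also low over the whole table, with a median ratio to wild type without E2 of 0.753.

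The TCF/LEF factors differed among themselves. LEF1 had its lead region inside the gene at chr4:108053218-108054098, with 218 and 188 fragments in wild type, 112 and 132 in Y537S, and 171 and 191 in K303R. The 2 Y537S values lay below the other 4 there. TCF7 had 147 and 182 fragments for wild type, 156 and 167 for Y537S, and 124 and 209 for K303R at a region inside the neighbouring gene VDAC1. TCF7L2 had 37 fragments in wild type without E2 and 83 to 118 in the other 5 libraries. TCF7L1 had 53 to 93 fragments.

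To compare libraries, the ratio of fragments at each region was divided by the median ratio over the 33626 regions, which ran from 0.753 to 1.21 over the 7 comparisons made. A region was called higher or lower when its ratio was at least 1.5-fold and its exact 99.9% counting interval excluded 1. The minimum of 50 fragments let in a WNT3A region at a mean of 50 fragments and left out the WNT16 promoter region at 49.8. Over the 7 comparisons, 43 of the 113 regions were called at least once (38.1%, against 38.8% of all 33626), near 18 genes, and 70 were never called. The 12 highest lead regions stayed close together: 1 of them, at LEF1, was called in any comparison.

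**Figure D2:**
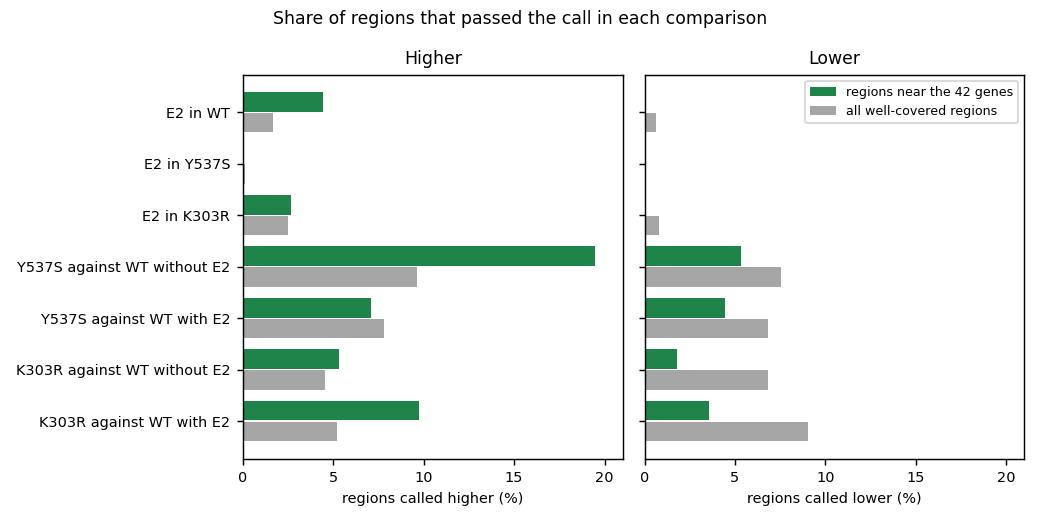
Percentage of regions called higher (left) and lower (right) in each comparison, among the 113 well-covered regions near the 42 genes (green) and among all 33626 (grey). Without E2, regions with more Y537S than wild-type binding hold the largest share of the green bars, 19.5% against 9.60%.

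With E2, wild-type ERα gained binding at a few regions near WNT genes and lost none that passed the call. Of the 113 regions 5 were higher (4.42%, against 1.66% of all regions) and 0 lower (0.607% of all regions), with a median ratio of 1.06. They lay near FZD9, TCF7L2, WNT3 and WNT9B, AXIN2 and WNT7B. In Y537S 0 regions were higher and 0 lower (0.0922% and 0.0743% of all regions), with a median of 0.964 and all ratios between 0.712 and 1.52. In K303R 3 regions were higher (2.65%, against 2.48% of all) and 0 lower (0.803% of all), near WNT3A, FZD8 and AXIN1, with a median of 1.12. Scaled by the lowest local background instead, 33 were higher in K303R (29.2%, against 14.0% of all regions) and 8 in wild type (7.08%, against 2.69%), and 0 were lower in either.

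The largest E2 ratio in wild type was near FZD9, a Frizzled receptor. This region, chr7:73442886-73443417, lies inside the gene BAZ1B, 7030 bp from FZD9. It had 28 fragments without and 86 with E2 in wild type, 109 and 106 in Y537S, and 26 and 55 in K303R. Wild type and K303R were thus low without E2, and Y537S was high in both libraries. The E2 ratio was 3.03 (1.96 to 4.83) in wild type, 0.866 (0.656 to 1.14) in Y537S and 1.76 (1.08 to 2.92) in K303R, the last not called. The wild-type ratio was 3.50 times that in Y537S (2.12 to 5.79) and 1.73 times that in K303R (0.919 to 3.25). Here and below, such intervals do not allow for the choice of regions by a called E2 ratio.

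WNT7B and the region shared by WNT3 and WNT9B showed similar values. At chr22:45910503-45910943, 9669 bp outside WNT7B, fragments were 40 and 99 in wild type, 104 and 104 in Y537S, and 40 and 88 in K303R. The ratio with E2 was 2.44 (1.68 to 3.62) in wild type, 0.890 (0.672 to 1.18) in Y537S and 1.83 (1.24 to 2.72) in K303R. Y537S without E2 was thus already at the level of wild type with E2. At chr17:46808700-46809236, inside WNT3 and the overlapping LRRC37A2, fragments were 37 and 80 in wild type, 71 and 91 in Y537S, and 32 and 59 in K303R. Only the wild-type ratio of 2.13 (1.43 to 3.24) was called there, and it was 1.87 times that in Y537S (1.14 to 3.08).

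AXIN2 and TCF7L2 gave the other 2 calls in wild type. Inside AXIN2, at chr17:65551751-65552229, fragments were 105 and 170 in wild type, 157 and 152 in Y537S, and 45 and 88 in K303R. The ratio was 1.60 (1.25 to 2.06) in wild type, 0.862 (0.685 to 1.08) in Y537S and 1.62 (1.12 to 2.38) in K303R, the last not called. K303R had the fewest fragments at this AXIN2 region with and without hormone. TCF7L2, a main partner of β-catenin in many tissues, was bound inside the gene at chr10:112951139-112951602, 1122 bp from its nearest listed start. It had 37 and 83 fragments for wild type, 102 and 118 for Y537S, and 111 and 97 for K303R. TCF7L2 was thus the 1 region of these 5 where K303R was high without E2. The ratio of 2.21 in wild type (1.49 to 3.36) was 3.06 times the 0.725 of K303R (1.90 to 4.91).

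E2 in wild type and Y537S against wild type without E2 both use the wild-type library without E2, so a low value in that library enters both. At the 5 regions called with E2 in wild type, the 2 ratios stood at 3.03 and 4.10 for FZD9, 2.21 and 2.90 for TCF7L2, 2.13 and 2.02 for WNT3 and WNT9B, 1.60 and 1.57 for AXIN2, and 2.44 and 2.74 for WNT7B.

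**Figure D3:**
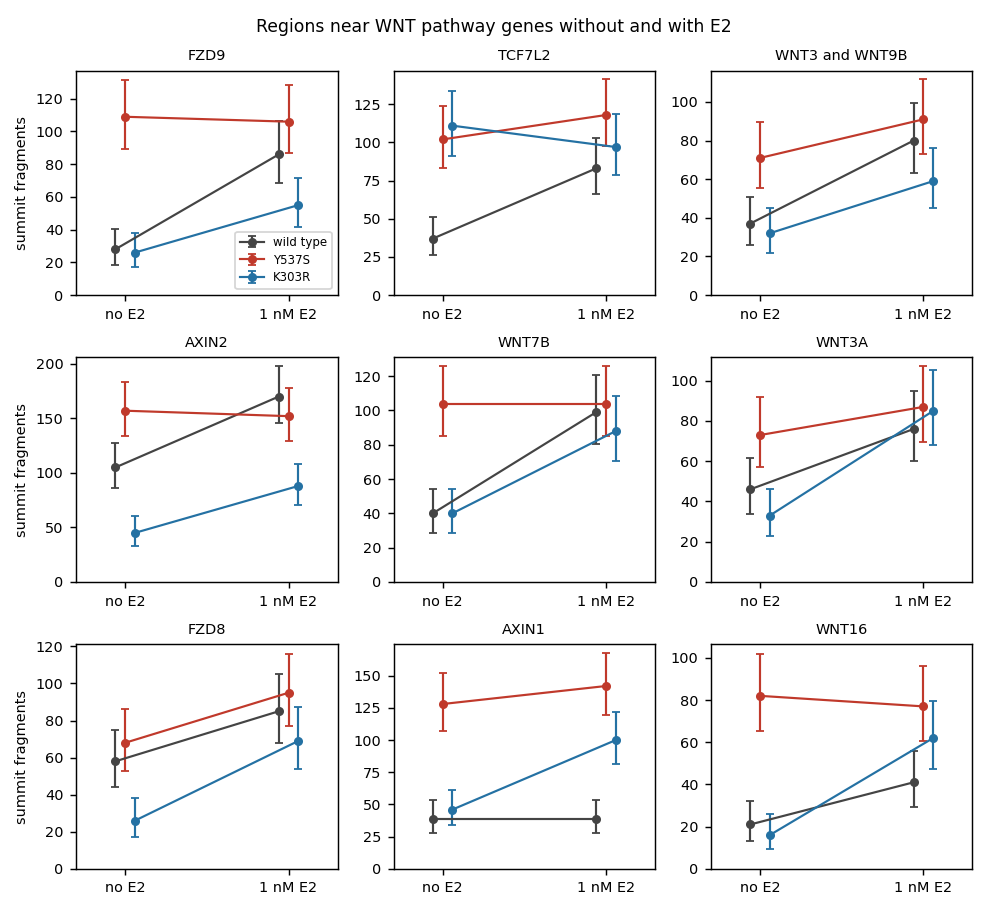
Summit fragments without and with 1 nM E2 at the 8 regions called in an E2 comparison and at WNT16, which was added after its values were seen, with 1 line per receptor and exact 95% Poisson intervals for counting error. Wild type (grey) rises at FZD9 from 28 to 86 while Y537S (red) stays at 109 and 106.

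In K303R the called regions were near a ligand, a receptor and a scaffold. At chr1:228073356-228074073, 12359 bp outside WNT3A, fragments were 46 and 76 in wild type, 73 and 87 in Y537S, and 33 and 85 in K303R. The ratio was 2.14 (1.41 to 3.30) in K303R and 1.63 (1.12 to 2.41) in wild type, where it was not called. At chr10:35624820-35625418, 13113 bp outside FZD8, fragments were 58 and 85 in wild type, 68 and 95 in Y537S, and 26 and 69 in K303R. The K303R ratio was 2.20 (1.38 to 3.6), and K303R without E2 was the lowest of the 6 libraries.

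The AXIN1 region at chr16:366343-366875, 13920 bp outside the gene, differed between the receptors. It had 39 and 39 fragments for wild type, 128 and 142 for Y537S, and 46 and 100 for K303R. In raw fragments, wild type was low in both libraries, Y537S high in both, and K303R high with E2 alone. The centred ratio of K303R to wild type was 1.57 (1.00 to 2.47) without E2, not called, and 2.81 (1.92 to 4.18) with E2, called. The E2 ratio was 1.80 (1.26 to 2.62) in K303R, 0.987 (0.617 to 1.58) in wild type and 0.988 (0.772 to 1.26) in Y537S. Centred on the regions within 5 Mb the K303R ratio was 1.65 and no longer called.

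WNT16, chosen after its values were seen, lay just under the minimum of 50 fragments. Its promoter region at chr7:121328400-121329029 had an E2 ratio of 1.93 (1.11 to 3.43) in wild type, 0.836 (0.604 to 1.16) in Y537S and 3.21 (1.83 to 5.97) in K303R. Without E2, Y537S had 4.11 times (2.52 to 6.99) the wild-type level.

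Between Y537S and wild type, differences ran in both directions. Without E2, 22 of the 113 regions were higher in Y537S (19.5%, against 9.60% of all regions) and 6 lower (5.31%, against 7.53%), with a median ratio of 1.12. With E2, 8 were higher (7.08%, against 7.82%) and 5 lower (4.42%, against 6.82%), with a median of 1.03. Scaled by the lowest local background, the counts without E2 were 32 higher (28.3%, against 17.3% of all) and 2 lower (1.77%, against 3.44%). With E2 that scaling gave 12 higher (10.6%, against 11.8%) and 5 lower (4.42%, against 4.55%). Centred on the median of each library, there were 19 higher (16.8%, against 8.05%) and 7 lower (6.19%, against 9.15%) without E2. With E2 that centring gave 6 higher (5.31%, against 6.06%) and 7 lower (6.19%, against 8.59%). Within 5 Mb windows there were 18 higher (15.9%, against 8.07%) and 4 lower (3.54%, against 6.58%) without E2. With E2 those windows gave 5 higher (4.42%, against 6.67%) and 5 lower (4.42%, against 6.01%). The 22 regions lay near 13 genes: WNT3, WNT3A, WNT4, WNT7B, WNT9A, WNT9B, FZD9, LRP5, AXIN1, AXIN2, TCF7L2, ZNRF3 and LGR6. Called the same way without and with E2 were 5 higher regions (4.42%, against 4.45% of all) and 4 lower ones (3.54%, against 3.76%), shares close to the background.

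By role, the AXIN scaffolds had the largest share of higher regions without E2, 7 of 13, with 1 lower and a median ratio of 1.57. Of all regions 9.60% were higher and 7.53% lower. For comparison, the WNT ligands had 6 higher and 0 lower of 45, and the TCF/LEF factors 1 higher and 3 lower of 15. The AXIN1 region outside the gene had a Y537S to wild-type ratio of 3.46 without E2 (2.40 to 5.08) and 3.46 with E2 (2.41 to 5.07). A further region on the other side, at chr16:266912-267500 inside FAM234A, had 51 and 48 fragments for wild type, 93 and 106 for Y537S, and 45 and 70 for K303R. Its ratios were 1.92 and 2.10. The surroundings of AXIN1 were also higher in Y537S: the median ratio over the regions within 5 Mb was 1.28 without and 1.24 with E2. Within that window the FAM234A region was at 1.5 and 1.7 and no longer called, while the first region stayed called at 2.69 and 2.80. A region inside AXIN1, at chr16:308376-308931, went from a called 2.41 without E2 to 1.88, not called. The counts by role were not recomputed within such windows, and AXIN1 regions that share 1 window are not independent.

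WNT3A, WNT9A and LGR6 completed the regions higher in Y537S under both treatments. At chr1:228004024-228004631, 2696 bp outside WNT3A, fragments were 76 and 85 in wild type, 153 and 175 in Y537S, and 72 and 131 in K303R. Both Y537S values lay above the other 4, and the ratios were 2.12 (1.60 to 2.83) without and 1.96 (1.5 to 2.57) with E2. At chr1:227945805-227946954, inside WNT9A, fragments were 116 and 130 in wild type, 198 and 213 in Y537S, and 133 and 172 in K303R. The ratios of 1.80 and 1.56 became 1.44 and 1.33 within the 5 Mb window, where the median was 1.25 and 1.17, and were no longer called. At chr1:202168842-202169532, 24652 bp outside LGR6, fragments were 130 and 133 in wild type, 205 and 233 in Y537S, and 120 and 164 in K303R. The ratios there were 1.66 and 1.67.

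Regions lower in Y537S under both treatments lay near LEF1, LGR6 and AXIN2. LEF1, a TCF/LEF factor, had 2 of them. Inside the gene, at chr4:108058626-108059147, fragments were 69 and 63 in wild type, 32 and 27 in Y537S, and 75 and 64 in K303R. Just outside, at chr4:108045528-108046179, they were 96 and 103, 51 and 50, and 135 and 135. The 2 Y537S libraries were the lowest at both LEF1 regions, with ratios of 0.488 and 0.408 inside and 0.559 and 0.462 outside. Without E2 neither call held when ratios were scaled by the lowest local background or centred within 5 Mb. The LEF1 lead region was called lower without E2 alone, at 0.541 (0.427 to 0.682).

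At LGR6 a region inside the neighbouring gene UBE2T, at chr1:202334709-202335877, had 179 and 158 fragments for wild type, 72 and 83 for Y537S, and 179 and 206 for K303R. The Y537S ratios were 0.424 (0.318 to 0.560) and 0.500 (0.378 to 0.656). LGR6 thus had a higher region on one side and a lower one on the other, and its ratio summed over the regions found in all 6 lists was 1.03 without E2. At chr17:65523968-65524652, 4224 bp outside AXIN2, fragments were 164 and 180 in wild type, 99 and 84 in Y537S, and 75 and 80 in K303R. Both mutants were below wild type here, with ratios of 0.636 and 0.444 in Y537S and 0.608 and 0.487 in K303R. The Y537S call without E2 at AXIN2 was lost within the 5 Mb window (0.682) and with background scaling (0.739).

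**Figure D4:**
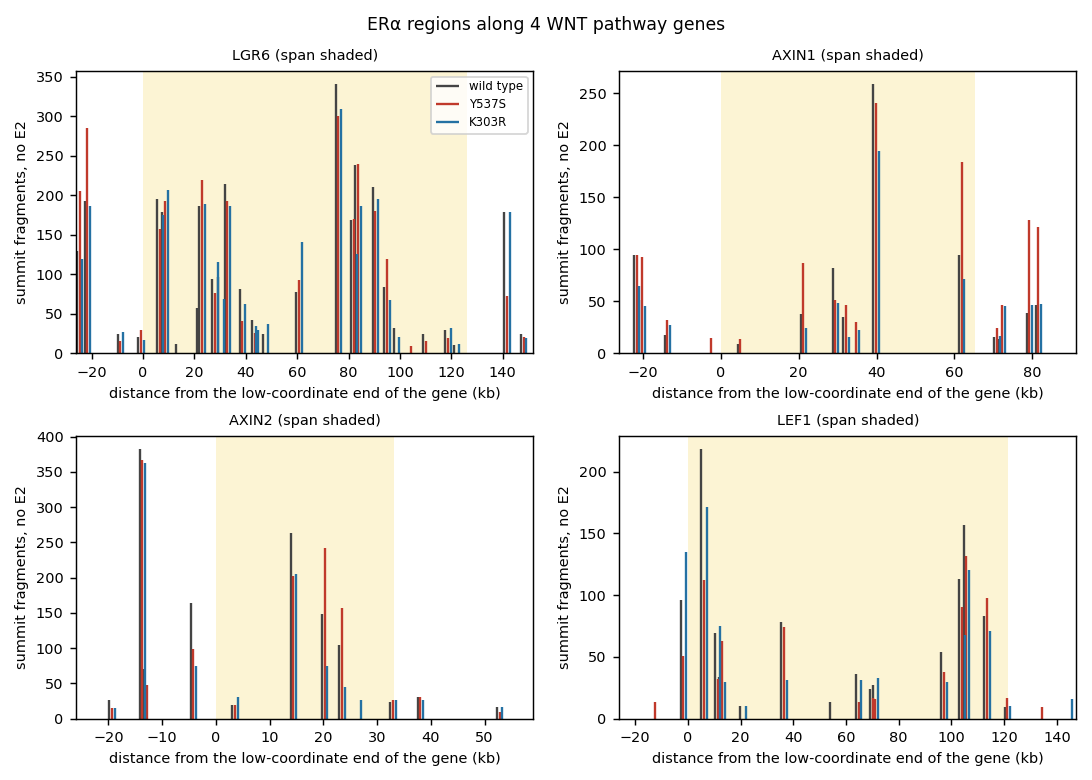
Summit fragments without E2 at each ERα region along LGR6, AXIN1, AXIN2 and LEF1, against the distance from the low-coordinate end of the gene, with the span shaded and 1 bar per receptor, set slightly apart so that they do not overlap. At AXIN1 the red Y537S bars beyond the far end of the gene reach 128 against 39 in wild type, and at LEF1 the red bars near 0 are the lowest of the 3 receptors.

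K303R was compared with wild type in the same way. Without E2, 6 of the 113 were higher in K303R (5.31%, against 4.52% of all regions) and 2 lower (1.77%, against 6.84%), with a median ratio of 1.12. With E2, 11 were higher (9.73%, against 5.18%) and 4 lower (3.54%, against 9.05%), with a median of 1.11. Called the same way under both treatments were 3 higher regions (2.65%, against 2.06%) and 2 lower ones (1.77%, against 4.22%). This split turned with the scaling. Scaled by the lowest local background, the untreated pair had 2 higher (1.77%, against 0.642% of all) and 12 lower (10.6%, against 22.7%). The E2 pair then had 6 higher (5.31%, against 3.53%) and 8 lower (7.08%, against 11.5%). Within 5 Mb windows the untreated pair had 4 higher (3.54%, against 3.95%) and 3 lower (2.65%, against 5.14%), and the E2 pair 4 higher (3.54%, against 4.45%) and 6 lower (5.31%, against 6.69%).

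LGR6 and LRP5 held the regions higher in K303R under both treatments. Inside LGR6, at chr1:202254237-202254869, fragments were 78 and 75 in wild type, 93 and 92 in Y537S, and 141 and 148 in K303R. Both K303R values were the highest, with ratios of 2.40 (1.81 to 3.21) without and 2.16 (1.63 to 2.90) with E2. Inside LRP5, at chr11:68341138-68341804, fragments were 72 and 115 in wild type, 162 and 175 in Y537S, and 114 and 170 in K303R. Wild type without E2 was the low library at LRP5, and the ratios were 2.10 (1.55 to 2.87) and 1.62 (1.27 to 2.07). The second LRP5 call was lost within the 5 Mb window, at 1.45, and the first with background scaling, at 1.60.

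A second region inside LGR6, at chr1:202201929-202202593, had 179 and 164 fragments for wild type, 193 and 212 for Y537S, and 207 and 232 for K303R. Its K303R ratios of 1.54 and 1.55 were lost within the 5 Mb window, at 1.35 and 1.37, and with background scaling, at 1.17 and 1.46. LGR4, the R-spondin receptor with the widest expression in adult tissues, had a lower region inside the gene at chr11:27430053-27430691. It had 121 and 110 fragments for wild type, 81 and 86 for Y537S, and 45 and 44 for K303R. K303R was lowest in both libraries, with ratios of 0.494 (0.343 to 0.701) and 0.439 (0.302 to 0.627). The 5 Mb around LGR4 was lower as a whole in K303R, with a median ratio of 0.697 and 0.685, and within it the ratios were 0.709 and 0.640 and not called. Among the 113 well-covered regions, TCF7L2 had the largest ratio of K303R to wild type, 3.99 (2.73 to 5.95) without E2, and 1.28 (0.946 to 1.74) with E2. The smallest was inside LEF1, at chr4:108083745-108084358, with 0.277 (0.167 to 0.442) with E2, called, and 0.528 without E2, not called. Fragments at this LEF1 region were 78 and 91 in wild type, 74 and 69 in Y537S, and 31 and 23 in K303R.

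Summed over the regions of a gene found in all 6 lists, changes were smaller than at single regions. The sum for LGR6 was 2715 and 2549 fragments in wild type, 2655 and 2909 in Y537S, and 2571 and 2948 in K303R. For AXIN1 it was 788 and 933, 1148 and 1292, and 646 and 1070, so Y537S was above wild type under both treatments (ratios 1.53 and 1.32). FZD9 had a sum of 248 and 332 in wild type, 395 and 438 in Y537S, and 199 and 300 in K303R, with ratios of 1.68 and 1.25 in Y537S. LEF1 went the other way, with 965 and 945, 719 and 822, and 795 and 819, and ratios of 0.785 and 0.827 in Y537S. LGR4 had sums of 267 and 307, 231 and 266, and 158 and 135, with K303R at 0.786 of wild type without and 0.482 with E2, in the 5 Mb that was lower as a whole in K303R. These sums have no call and follow the largest regions of each gene.

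**Figure D5:**
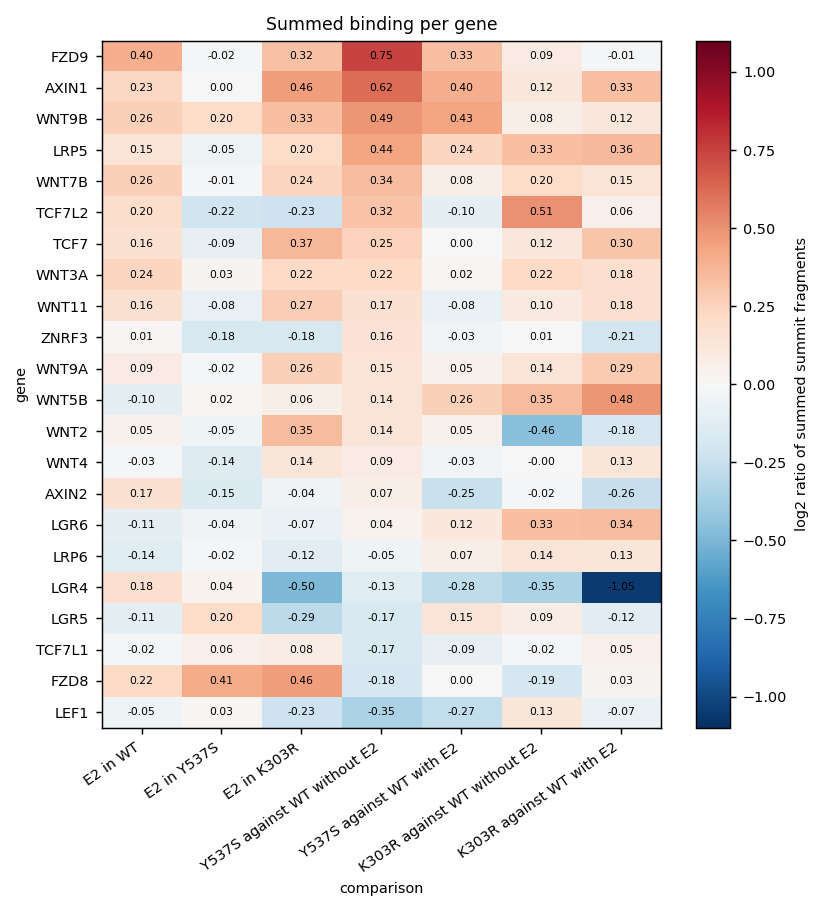
Log2 ratio of summed summit fragments, centred on the median region, for the 22 genes with a mean sum of at least 200 fragments, in 7 comparisons, ordered by Y537S against wild type without E2. The column of E2 in Y537S stays near 0 for most genes, and the column of Y537S without E2 runs from 0.75 at FZD9 to −0.35 at LEF1.

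The most alike genes over the 6 libraries were found by the Euclidean distance of their 6 centred log2 sums. Among pairs with sums of their own, WNT9A and WNT11 were closest at 0.105, followed by WNT9A and TCF7 at 0.110, WNT11 and TCF7 at 0.114, and WNT3A and WNT9A at 0.120. WNT1 and WNT10B, and WNT6 and WNT10A, have a distance of 0 because their sums rest on shared regions. WNT5B was nearest to LGR6, at 0.161.

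A second list of 56 pathway genes held secreted regulators, other co-receptors, cytoplasmic and nuclear partners of β-catenin and planar polarity genes. All 56 had a region in at least 1 library, 17 had a strong region in all 6, and 146 of their regions were well covered. With E2, 2 of these were higher (1.37%, against 1.66% of all regions) and 0 lower in wild type. In Y537S 0 were higher and 1 lower (0.685%, against 0.0743%), and in K303R 5 were higher (3.42%, against 2.48%) and 1 lower (0.685%, against 0.803%). Y537S was above wild type at 12 regions without E2 (8.22%, against 9.60%) and at 12 with E2 (8.22%, against 7.82%). It was below at 3 (2.05%, against 7.53%) and 5 (3.42%, against 6.82%). K303R was above wild type at 6 regions without E2 (4.11%, against 4.52%) and 7 with E2 (4.79%, against 5.18%), and below at 5 (3.42%, against 6.84%) and 7 (4.79%, against 9.05%). The median ratios lay between 0.984 and 1.07, against 0.964 to 1.12 for the 113 regions.

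The genes of this second list named here were chosen after their values were seen. Among the cytoplasmic partners, BTRC and DVL1 had regions that differed between libraries. BTRC, part of the ligase that marks β-catenin for breakdown, rose from 54 to 106 fragments with E2 in wild type at chr10:101552613-101553321 (ratio 1.94, 1.38 to 2.74). Without E2 this BTRC region had 124 fragments in Y537S and 77 in K303R, with called ratios to wild type of 2.42 and 1.89. The low wild-type library without E2 thus enters all of these ratios. DVL1, which relays the signal from Frizzled to the AXIN complex, had 9 well-covered regions. Without E2, 5 of them were higher in Y537S (against 9.60% of all regions), with ratios of 1.73 to 3.05. With E2 the called Y537S ratios at DVL1 were 1.75, 2.11 and 2.34. Among the secreted regulators, RSPO3, a ligand of the LGR receptors, had a region at chr6:127188729-127189468 where, without E2, wild type had 98 fragments and Y537S had 31, and with E2 they had 88 and 36. The ratios were 0.333 and 0.389. SFRP1, a secreted antagonist that binds WNT proteins, had 57 fragments in wild type against 99 in K303R, both without E2, a ratio of 2.31 (1.65 to 3.26). TNKS, an enzyme that marks AXIN for breakdown, had, without E2, 127 in wild type against 23 in K303R, and 134 against 43 with E2, with ratios of 0.241 and 0.352.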

How the data were processed

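ERα binding was measured by ChIP-seq in 6 libraries, 1 for each receptor and treatment, grouped by their titles. Per the submitters' processing notes, Bowtie2, SAMtools, Picard, bedtools, MACS2 and hg38 were used. Versions, roles, the control and the threshold were not given in the sources used here. The authors deposited 1 peak list per library with a fold enrichment (a ratio to local background), −log10 p-values and −log10 q-values, and a score that was not used. Summit fragments and the local background were solved from the deposited fold, (n + 1)/(background + 1), and its Poisson p-value. They matched p to within 0.01% for 100.0% of peaks. This was tested on simulated data. Peaks overlapping by at least 1 bp were merged. Ratios of E2 ratios have log-normal counting intervals, which do not allow for the choice of regions by those E2 ratios. Other ratios, with exact conditional binomial intervals, and calls were computed over all 33626 well-covered regions with Python 3.11.15, NumPy 2.4.6, pandas 2.3.3 and SciPy 1.17.1. A call compares 2 libraries, not conditions. Intervals cover counting error only, and total depth is unknown.

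The members and lists were chosen with earlier results of these data known. Named genes were those with the 12 highest lead regions, a region called in an E2 comparison, the up to 5 largest changes each way called in both treatments of a mutant, or no region in 1 or more libraries. Centring on each library's median and the motif GGTCA were added after the data were seen. Motifs under peaks were not searched, since no genome sequence was used here. Alternatives changed the window, the number of strong regions and their ranking, the minimum, the fold, the scaling and the centring.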

Additional observations from a re-analysis of the deposited data

Results flagged for a closer look

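At 5 regions a called E2 ratio above 1 in one receptor stood beside a centred ratio below 1 in another. Except at TCF7L2 in K303R, the intervals of the ratios below 1 include 1. This exception rests on centring by the median region. Scaling by the lowest local background raises E2 ratios in K303R by 0.36 (log2), and the TCF7L2 interval was not recomputed with it. The differences between receptors have counting intervals and no replicate test. The regions were picked by these same E2 ratios, and the intervals do not allow for that choice. An interval that excludes 1 is therefore no separate evidence of a difference. Near FZD9 the E2 ratio was 3.03 in wild type and 0.866 in Y537S. At TCF7L2 it was 2.21 in wild type and 0.725 in K303R. Inside AXIN2 it was 1.60 in wild type and 0.862 in Y537S, and near WNT7B it was 2.44 and 0.890. The AXIN1 region had 1.80 in K303R, against 0.987 in wild type and 0.988 in Y537S. The wild-type ratio was 3.50 times that of Y537S near FZD9 (2.12 to 5.79), 2.75 times near WNT7B (1.74 to 4.34) and 1.86 times inside AXIN2 (1.33 to 2.58). At the AXIN1 region the K303R ratio was 1.83 times that of Y537S (1.2 to 2.79).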

How the results depend on the processing

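No paired analysis was possible because each group has 1 library and the labels give no replicate numbers. Scaling by the lowest local background moved the median region by 0.36 (log2) for E2 in K303R, by 0.22 and 0.12 for Y537S against wild type without and with E2, and by −0.39 for K303R against wild type without E2. It gave 8 regions higher with E2 in wild type (2.69% of all regions), 33 higher with E2 in K303R (14.0%), and 2 lower in Y537S without E2 (3.44%). For K303R against wild type it gave 2 higher (0.642%) and 12 lower (22.7%) without E2, and 6 higher (3.53%) and 8 lower (11.5%) with E2. A minimum mean of 20 fragments gave 5 regions higher with E2 in K303R (2.70%, against 1.75% of all) and 8 lower in K303R against wild type with E2 (4.32%, against 7.84%). At a fold of at least 2, Y537S had 12 higher (4.73% of all) and 2 lower (3.79%) regions without E2 and 2 higher (3.0%) with E2. K303R had 3 higher (1.44%) and 1 lower (4.35%) without E2 and 2 higher (1.81%) with E2. Centring within 5 Mb windows gave 5 higher in Y537S with E2 (6.67% of all) and 4 higher in K303R with E2 (4.45%). Among the strongest 20000 regions, 25 genes were near one in wild type with E2 (45.9% of all protein-coding genes) and 24 in Y537S without E2 (47.9%). In all, 67 of 84 recomputed region counts and 34 of 36 gene counts stayed within 1.5 times of the reported ones. The region tally includes counts of 0 that stayed at 0. Counts of genes with a region, at 38 to 40 of 42, had no room to rise that far. Of 72 called ratios, 49 stayed called within 5 Mb windows, 59 with background scaling and 66 with the centring added later. Of 266 summed ratios, 40 moved by more than their counting interval when a missing peak was counted as 0. Regions with a mean under 50 fragments were too shallow to compare in the main set.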

Other observations

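With a minimum mean of 20 fragments, 185 regions were tested, and 17 further ones were called in at least 1 comparison. The share of all regions called at least once was not computed at this minimum, and was 38.8% in the main set. Y537S then had 28 higher (15.1%, against 7.44% of all) and 8 lower (4.32%, against 7.83%) without E2. With E2 it had 11 higher (5.95%, against 6.25%) and 7 lower (3.78%, against 6.58%). Of the 17 regions, 4 are given here. FZD1, a Frizzled receptor with no region in the main set, had 70 and 49 fragments under wild-type receptor without and with E2, 14 and 12 in Y537S, and 60 and 38 in K303R at chr7:91249400-91250223. Its Y537S to wild-type ratio was 0.211 (0.110 to 0.377) without and 0.233 (0.113 to 0.444) with E2. At WNT11, chr11:76196299-76196879 had 13 and 42 fragments with wild-type receptor, 39 and 48 in Y537S, and 17 and 40 in K303R, and its E2 ratio in wild type was 3.19 (1.68 to 6.48). Beside AXIN1, chr16:359322-359940 had 14 and 22 in wild type, 46 and 54 in Y537S, and 45 and 70 in K303R, so both mutants were above wild type under both treatments. RNF43, a ligase that removes Frizzled and also had no region in the main set, had 11 and 11, 21 and 21, and 35 and 29 fragments at chr17:58336188-58336837. These regions were chosen after their values were seen.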
